A study of Mus musculus with 6 samples.

Results

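The genes of calcineurin, its RCAN inhibitors and the NFAT transcription factors were examined in the EDL (extensor digitorum longus), which is a hindlimb muscle made mostly of fast-twitch fibres. They were chosen by symbol and comprise 4 calcineurin subunit genes (Ppp3ca, Ppp3cb, Ppp3cc and Ppp3r1), 2 inhibitors (Rcan1 and Rcan2) and 4 factors (Nfatc1 to Nfatc4). All 10 were found among the 24411 genes of the deposited table, and all 10 passed the filter on low counts, as did 12892 genes in all. RNA was compared between 3 mAktDKO mice and 3 control floxed mice. Both groups were 50 weeks old, on the C57BL/6J strain, and carried floxed Akt1 and Akt2. The mAktDKO mice also carried the Mlc1f-Cre knock-in, which is active mainly in fast-twitch fibres and little in satellite cells, so RNA of other cells in the muscle came from cells in which Cre is not expected to act.

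Calcineurin is a phosphatase that is switched on by calcium and calmodulin. Its catalytic subunit removes phosphate from NFAT factors, which then enter the nucleus, while RCAN proteins bind the phosphatase and restrain it. In muscle this route is known for supporting the slow-fibre programme under sustained activity. Akt inhibits GSK3, one of the kinases that return NFAT to the cytoplasm. Calcineurin and NFAT are controlled largely at the protein level by calcium and phosphorylation, and RNA counts do not measure that activity.

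Total estimated counts were between 13738795 and 15445523 per mouse, and the floor of 3 counts lay at 0.18 to 0.227 CPM (counts scaled to a common library total, here with TMM factors). The members had from 107 counts in the lowest mouse of Nfatc4 to 4221 in the highest mouse of Ppp3cb. The targeted Akt2 was at 51.3, 49.1 and 52.7 CPM in mAktDKO mice 1 to 3 against 172, 133 and 143 CPM in control mice 2 to 4, the numbers in the table. Akt1, counted over the whole gene, was at 55.7 ± 3.89 CPM (SD, n = 3) against 66.2 ± 0.56 CPM (SD, n = 3). Muscle markers were abundant in every mouse, and Myh4, the myosin of the fastest fibres, averaged 50609 CPM in the control group. The 5 T cell markers in the table summed to at most 1.02 CPM, with 1 at 0 in every mouse and none past the filter. Control mouse 2 stood apart from the other control mice. The chi-square of its counts per degree of freedom was 22.002 and 21.263 against control mice 3 and 4, whereas those 2 differed by 8.71 and pairs of mAktDKO mice by 6.25 to 12.1. For the members whose value leaned on this mouse, the value without it is also given.

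No member differed between the genotypes past the threshold. At an adjusted p of 0.01 in edgeR's quasi-likelihood test, 0 of the 10 members were called, as were 0.0233% of all genes tested, and at 0.05 the count was again 0 of 10 against 1.18% of all genes (0.264% as higher and 0.915% as lower). Without adjustment, 2 of the 10 (Ppp3cc, lower, and Rcan1, higher) had a p under 0.05, a share no larger than the 24.5% of all genes. The groups did not overlap for 1 of the 10, Ppp3cc, which was lower, against 31.1% of all genes (14.6% as higher and 16.6% as lower). DESeq2's Wald test called 0 of the 10 at 0.01, against 3.55% of the genes to which it gave an adjusted p. Without control mouse 2, edgeR again called 0 of the 10 at 0.01 and gave 2 an unadjusted p under 0.05. The log2 fold changes were negative for 6 members and positive for 4, and their median was -0.09 against 0.02 for all genes tested. Scaling by library totals alone moved the median of all genes to 0.16, and Ppp3ca, Ppp3cb and Ppp3r1 then had log2 fold changes of 0.0447, 0.0522 and 0.0339, above 0 but below that median. The sizes ranged from 0.01 for Nfatc1 to 0.50 for Rcan1 on the log2 scale, and the adjusted p from 0.0895 to 0.972 in edgeR. The plot of CPM by mouse shows all members, and the plot of log2 fold changes gives their intervals.

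**Figure D1:**
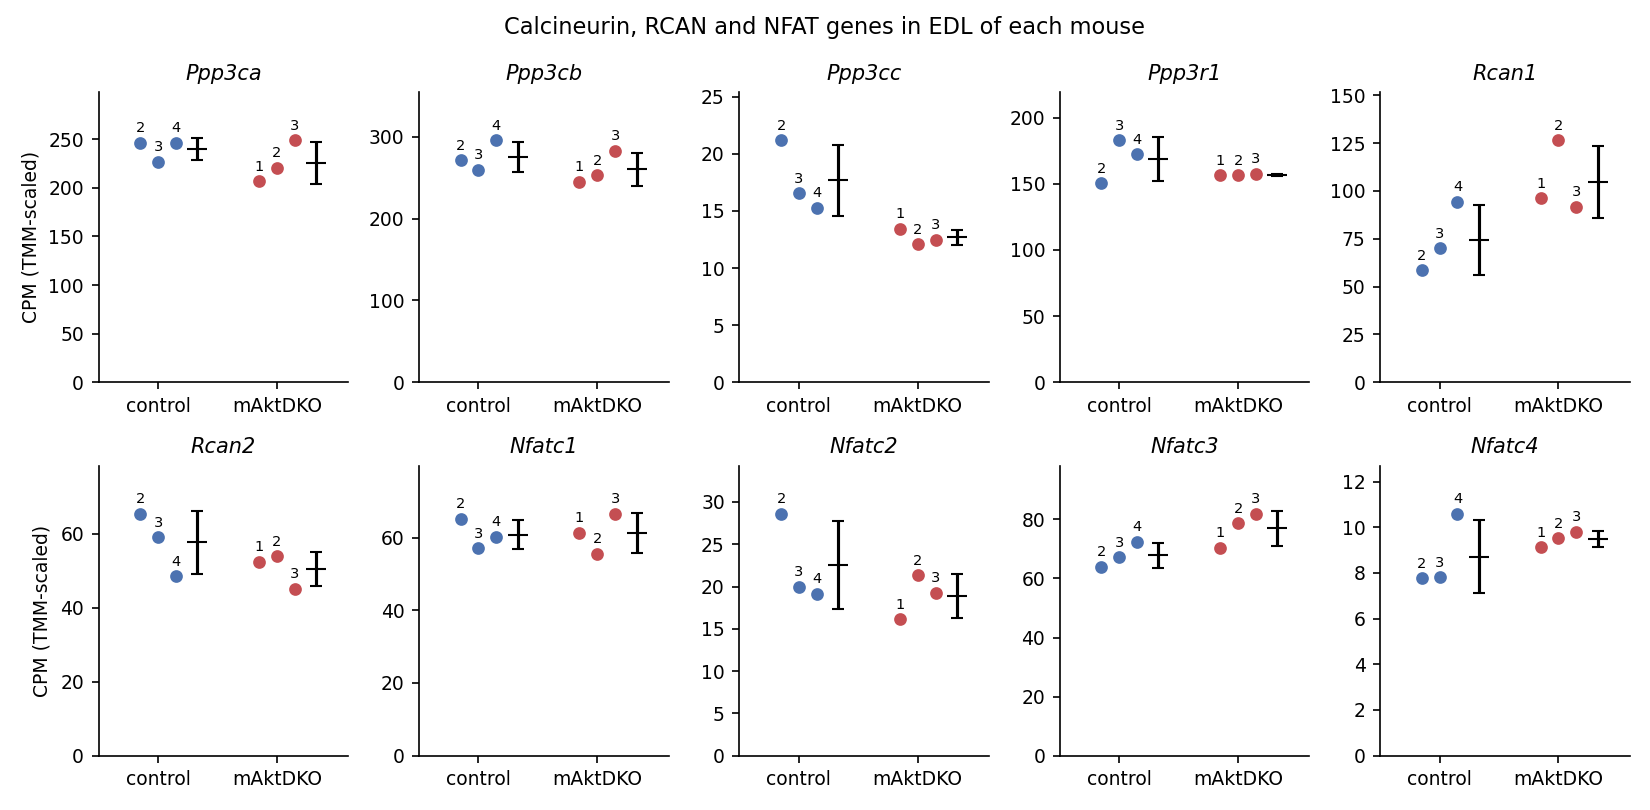
Normalized counts (CPM, TMM-scaled, linear axis from 0) of the 10 genes in each mouse, numbered as in the deposited table, with the mean and SD of each group (n = 3) in black. The groups overlap for every gene except Ppp3cc, whose mAktDKO mice lie at 12.1 to 13.4 CPM and control mice at 15.3 to 21.2 CPM.

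**Figure D2:**
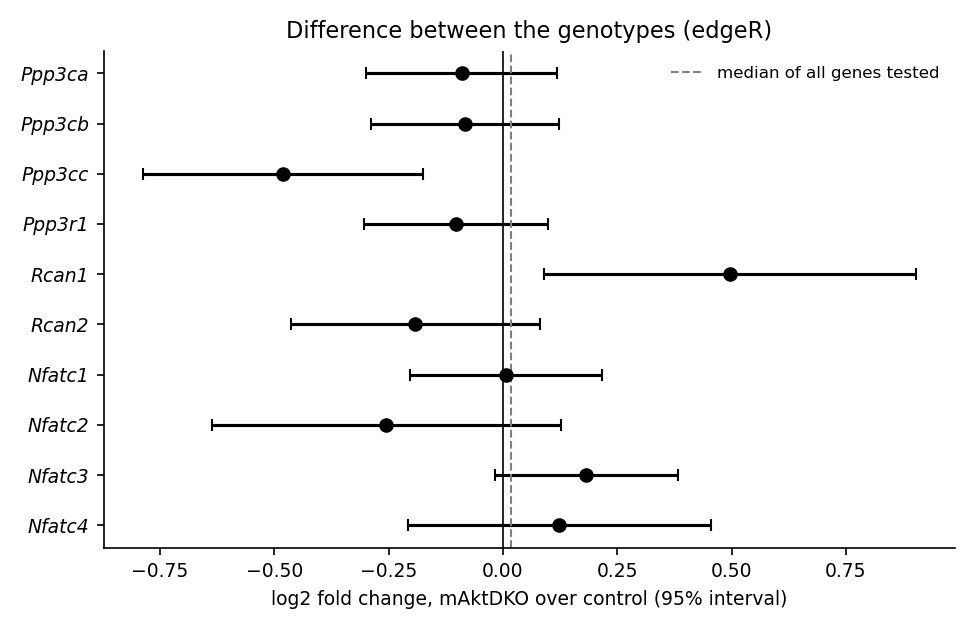
Log2 fold change of each gene, mAktDKO over control, with its 95% interval from edgeR's quasi-likelihood fit. The intervals of Ppp3cc and Rcan1 leave out 0 before adjustment for the number of genes tested, and the other 8 include it.

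The catalytic subunits were examined first. Ppp3ca encodes the alpha form of calcineurin A and lies on chromosome 3 of mm10 from 136670124 to 136937727, on the plus strand. It was at 207, 221 and 249 CPM in mAktDKO mice 1 to 3 and at 246, 227 and 247 CPM in control mice 2 to 4. mAktDKO mouse 3 was the highest of all 6 mice and mouse 1 the lowest, so the groups overlapped. Ppp3ca had a log2 fold change of -0.09 (95% interval -0.30 to 0.12, adjusted p = 0.566, edgeR). Ppp3cb, the beta form, on chromosome 14 from 20499364 to 20546573 (minus strand), was at 245, 253 and 283 CPM against 271, 260 and 296 CPM. For this gene the range of each group held the other group's mean. The change of Ppp3cb was -0.08 on the log2 scale (95% interval -0.29 to 0.12, adjusted p = 0.597, edgeR). For both major catalytic subunits, the 95% intervals thus reach from about -0.30 to 0.12 on the log2 scale. Leaving out each mouse in turn gave log2 fold changes between -0.18 and -0.03 for Ppp3ca and between -0.16 and -0.03 for Ppp3cb.

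Ppp3cc, the gamma form, which is best known from testis and is the rarest of the catalytic subunits here, had the smallest p of the 10 members in edgeR, where DESeq2 gave Rcan1 the smallest. It lies on chromosome 14 from 70217865 to 70289471, on the minus strand. Ppp3cc was at 13.4, 12.1 and 12.5 CPM in mAktDKO mice 1 to 3 and at 21.2, 16.6 and 15.3 CPM in control mice 2 to 4. The groups did not overlap, with the mAktDKO mice close together at the lower end and control mouse 2 well above the other control mice. The means were 12.7 ± 0.692 CPM (SD, n = 3) and 17.7 ± 3.11 CPM (SD, n = 3). On the log2 scale the change was -0.48 (standard error 0.136, 95% interval -0.79 to -0.17), with an unadjusted p of 0.00628 and an adjusted p of 0.0895 in edgeR, so Ppp3cc was not called. Its log2 fold change was -0.33 without control mouse 2 (adjusted p = 0.149, edgeR). Exons of Ppp3cc share 91 bases with an antisense gene, Gm49417, which the table does not list, and the libraries were strand-specific.

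Ppp3r1 encodes calcineurin B, the regulatory subunit that every catalytic subunit needs. The gene is on chromosome 11 from 17159263 to 17200375 (plus strand), and 462 bases of its exons are shared with Wdr92 on the same strand, so the estimated counts of this pair depend on how reads were divided between them. Ppp3r1 was at 157, 156 and 158 CPM in mAktDKO mice 1 to 3 and at 150, 183 and 172 CPM in control mice 2 to 4. The mAktDKO mice were nearly equal and lay within the range of the control mice. Ppp3r1 had a log2 fold change of -0.10 (95% interval -0.30 to 0.10, adjusted p = 0.499, edgeR), and between -0.18 (without control mouse 2) and -0.04 (without control mouse 3) when single mice were left out.

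The makeup of the phosphatase was then compared within each mouse, which does not depend on the scaling between mice. Counts were divided by the length of the principal transcript in GENCODE M21. Per length, Ppp3ca made up 58.0 ± 0.752% of the catalytic subunits in the mAktDKO mice and 57.5 ± 0.487% in the control mice (SD, n = 3 each). Ppp3cb made up 38.4 ± 0.317% and 37.8 ± 1.29%, and Ppp3cc 3.65 ± 0.440% and 4.72 ± 0.809%. The groups overlapped for all 3 shares, with a two-sided exact permutation p of 0.4, 0.5 and 0.2, where 3 mice against 3 cannot go below 0.1. The share of Ppp3cc was 4.13, 3.56 and 3.27% in mAktDKO mice 1 to 3 and 5.55, 4.68 and 3.93% in control mice 2 to 4. mAktDKO mouse 1 thus lay above control mouse 4, and the difference of the means went from -1.06 to -0.65 percentage points without control mouse 2. Which of the major forms leads depends on the length used. With all exons of the gene in place of the principal transcript, Ppp3ca made up 40.0% and 39.3% and Ppp3cb 52.4% and 51.1% in the mAktDKO and control groups. The log2 ratio of Ppp3r1 to the summed catalytic subunits, in counts, was -1.66 ± 0.112 in the mAktDKO mice and -1.67 ± 0.193 in the control mice (SD, n = 3 each, exact permutation p = 1.0).

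**Figure D3:**
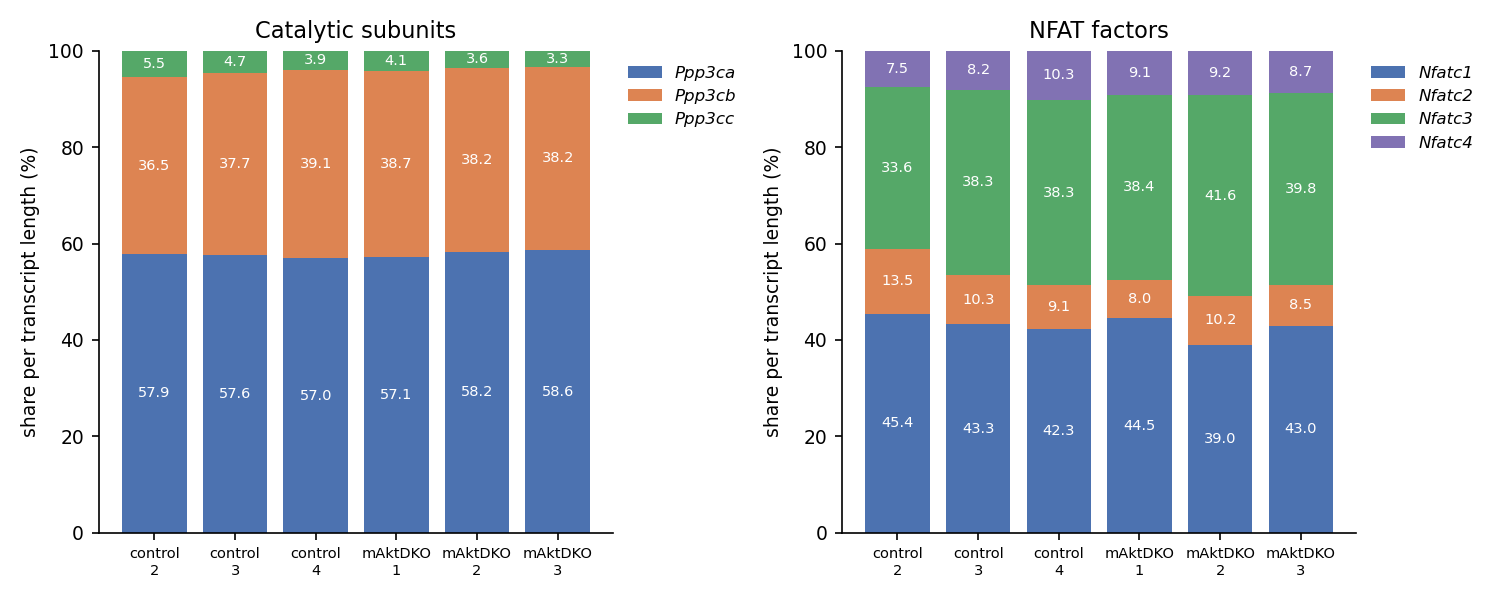
Share of each catalytic subunit (left) and of each NFAT factor (right) in every mouse, in percent of the summed counts per length of the principal transcript. Ppp3ca and Ppp3cb hold nearly the same shares in all 6 mice, whereas Nfatc3 takes 38.4 to 41.6% in the mAktDKO mice and 33.6 to 38.3% in the control mice.

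Among the inhibitors, Rcan1 had the highest log2 fold change of the 10 members, close in size to that of Ppp3cc, and Rcan2 lay on the other side of 0. Rcan1 encodes regulator of calcineurin 1, whose shorter form is transcribed from a promoter inside the gene that is itself a known target of NFAT. The gene lies on chromosome 16 of mm10 from 92391953 to 92470867, on the minus strand. The 250 bases before each of its RefSeq starts (GRCm38.p6, minus strand) are shown because Rcan1 is the member through which calcineurin activity is often read. Capitals mark GGAAA, the core of NFAT sites, or its reverse complement TTTCC, neither of which overlaps the other. Both windows lie in introns of the gene as GENCODE M21 draws it. The first transcribed bases after the inner start were found in a GENCODE transcript of Rcan1 and those after the upstream start were not. A GENCODE start a few bases further on would also fail this match. The failed match thus does not show that GENCODE lacks the upstream start.
Rcan1 window before the inner start, chr16:92400079-92400328: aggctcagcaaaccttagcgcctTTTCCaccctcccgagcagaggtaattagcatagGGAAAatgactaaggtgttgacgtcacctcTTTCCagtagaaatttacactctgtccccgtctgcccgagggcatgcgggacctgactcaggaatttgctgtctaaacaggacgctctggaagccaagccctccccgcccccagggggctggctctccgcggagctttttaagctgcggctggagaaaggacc
Rcan1 window before the upstream start, chr16:92466170-92466419: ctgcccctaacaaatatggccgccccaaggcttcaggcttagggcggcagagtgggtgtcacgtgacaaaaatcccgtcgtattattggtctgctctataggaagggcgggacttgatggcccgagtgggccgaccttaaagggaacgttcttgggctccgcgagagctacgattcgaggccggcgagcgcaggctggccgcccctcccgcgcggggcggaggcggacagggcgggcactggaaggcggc

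The inner window holds 3 such matches and the upstream window 0. Of 32851 windows of the same length before RefSeq starts, 55.6% hold at least 1 match and 6.39% hold 3 or more. A match describes the letters and not a bound site, and the counts are per gene, so they do not show from which start the Rcan1 RNA came. For the other members, the RefSeq table gave 10 windows of 6 genes, of which Ppp3cb, Nfatc4 and 1 of the 2 windows of Nfatc2 also hold 3 matches.

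Rcan1 was at 96.3, 126 and 91.8 CPM in mAktDKO mice 1 to 3 and at 58.6, 70.0 and 94.4 CPM in control mice 2 to 4. Of the mAktDKO mice, 2 lay above all control mice, whereas mouse 3 lay just below control mouse 4. The means were 105 ± 18.8 CPM and 74.3 ± 18.3 CPM (SD, n = 3 each). Its log2 fold change was 0.50 (standard error 0.18, 95% interval 0.09 to 0.90), with an unadjusted p of 0.0218 and an adjusted p of 0.143 in edgeR, so Rcan1 was not called. DESeq2's Wald test gave 0.49 with an adjusted p of 0.0496. Without control mouse 2 the log2 fold change of Rcan1 was 0.35 (adjusted p = 0.269, edgeR) and without mAktDKO mouse 2, the highest, it was 0.34 (adjusted p = 0.417, edgeR). Rcan2, which encodes regulator of calcineurin 2, on chromosome 17 from 43801351 to 44039516 (plus strand), was at 52.4, 53.9 and 45.2 CPM in mAktDKO mice 1 to 3 against 65.4, 59.1 and 48.5 CPM in control mice 2 to 4. Control mouse 4 lay below mAktDKO mice 1 and 2, so the groups overlapped. Its log2 fold change was -0.19 (95% interval -0.46 to 0.08, adjusted p = 0.348, edgeR), and between -0.30 (without control mouse 4) and -0.09 (without control mouse 2) when single mice were left out. The log2 ratio of Rcan1 plus Rcan2 to the catalytic subunits, in counts, was -1.65, -1.43 and -1.99 in mAktDKO mice 1 to 3 and -2.12, -1.96 and -1.96 in control mice 2 to 4. mAktDKO mouse 3 lay within the control range, and the difference between the means was 0.33 (exact permutation p = 0.3), or 0.20 without mAktDKO mouse 2.

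None of the NFAT factors was called. Nfatc1, the member of the family most closely tied to slow fibres, was at 61.4, 55.5 and 66.5 CPM in mAktDKO mice 1 to 3 and at 65.2, 57.1 and 60.2 CPM in control mice 2 to 4. The highest and the lowest value both came from mAktDKO mice. Its log2 fold change was 0.01 (95% interval -0.20 to 0.22, adjusted p = 0.972, edgeR), the smallest of the members. Nfatc3, on chromosome 8 from 106058840 to 106130537 (plus strand), was at 70.4, 78.8 and 81.9 CPM against 64.0, 67.2 and 72.4 CPM. Only mAktDKO mouse 1 lay within the control range. Nfatc3 had a log2 fold change of 0.18 (95% interval -0.02 to 0.38, adjusted p = 0.239, edgeR). It was between 0.12 and 0.24 when single mice were left out. Exons of Nfatc3 share 219 bases with Esrp2 on the opposite strand.

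Nfatc2, a factor well known from T cells, lies on chromosome 2 from 168476410 to 168601657 (minus strand). It was at 16.2, 21.3 and 19.3 CPM in mAktDKO mice 1 to 3 and at 28.6, 19.99 and 19.1 CPM in control mice 2 to 4. Control mouse 2 stood alone at the top. The log2 fold change was -0.26 with it (95% interval -0.64 to 0.13, adjusted p = 0.369, edgeR) and -0.05 without it (adjusted p = 0.865, edgeR). Nfatc4, on chromosome 14 from 55823144 to 55833943 (plus strand), was the lowest in CPM, at 9.13, 9.52 and 9.81 against 7.76, 7.81 and 10.6. All mAktDKO mice lay inside the control range. Its log2 fold change was 0.12 (95% interval -0.21 to 0.46, adjusted p = 0.625, edgeR), and at its median of 142 counts the counting error alone is 8.41% in a mouse. Without control mouse 2, 3 or 4 the log2 fold change of Nfatc4 was 0.04, 0.05 or 0.28.

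Within the NFAT family, and per length of the principal transcript, Nfatc3 took 38.4, 41.6 and 39.8% in mAktDKO mice 1 to 3 and 33.6, 38.3 and 38.3% in control mice 2 to 4. The groups did not overlap, but the gap between them was narrow, and the exact permutation p of 0.1 is the smallest that 3 mice against 3 allow (0.6 after adjustment over the 9 shares and ratios compared). The difference between the means of this share went from 3.21 to 1.64 percentage points without control mouse 2. Nfatc1 took 42.2 ± 2.85% and 43.7 ± 1.597%, Nfatc2 8.86 ± 1.16% and 10.98 ± 2.28%, and Nfatc4 9.03 ± 0.256% and 8.62 ± 1.46% in the mAktDKO and control groups (SD, n = 3 each). These groups overlapped, with exact permutation p values of 0.5, 0.2 and 0.7. The differences of these 3 shares, without control mouse 2, went from -1.50, -2.12 and 0.41 to -0.62, -0.84 and -0.18 percentage points.

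To order the levels of different genes, CPM values were divided by transcript length in kb. With the principal transcript, the order in the control mice ran from Ppp3ca (109 ± 5.13 CPM per kb, SD, n = 3) through Ppp3cb (71.9 ± 4.80), Ppp3r1 (58.9 ± 5.81), Rcan1 (33.9 ± 8.34), Rcan2 (17.9 ± 2.64), Nfatc1 (13.5 ± 0.901), Nfatc3 (11.3 ± 0.708), Ppp3cc (8.97 ± 1.58) and Nfatc2 (3.40 ± 0.789) to Nfatc4 (2.67 ± 0.495). With this length, the phosphatase genes other than Ppp3cc thus stood above the inhibitors, and the inhibitors above the factors. Among neighbours in this order, the ranges over the control mice overlapped for Nfatc3 with Ppp3cc and for Nfatc2 with Nfatc4. In the mAktDKO mice the order was the same except that Nfatc4 (2.90 ± 0.104) stood above Nfatc2 (2.85 ± 0.391), with overlapping ranges. There Rcan1 (47.9 ± 8.59) also overlapped Ppp3r1 (54.9 ± 0.25), and Nfatc1 (13.6 ± 1.22) overlapped both Rcan2 (15.7 ± 1.45) and Nfatc3 (12.9 ± 0.994). With the length of all exons, Ppp3r1 came first at 52.2 ± 5.14 CPM per kb in the control mice, and Ppp3ca fell to the fourth place at 24.0 ± 1.13. Rcan1 then lay at 24.1 ± 5.92 in the control mice, with a range that overlapped that of Ppp3ca. In the mAktDKO mice Rcan1 (34.0 ± 6.10) stood above Ppp3ca (22.6 ± 2.15) and Ppp3cb (29.5 ± 2.29), overlapping the range of Ppp3cb. The length used thus sets the order among the most abundant members, while Nfatc2 and Nfatc4 came last with either length.

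**Figure D4:**
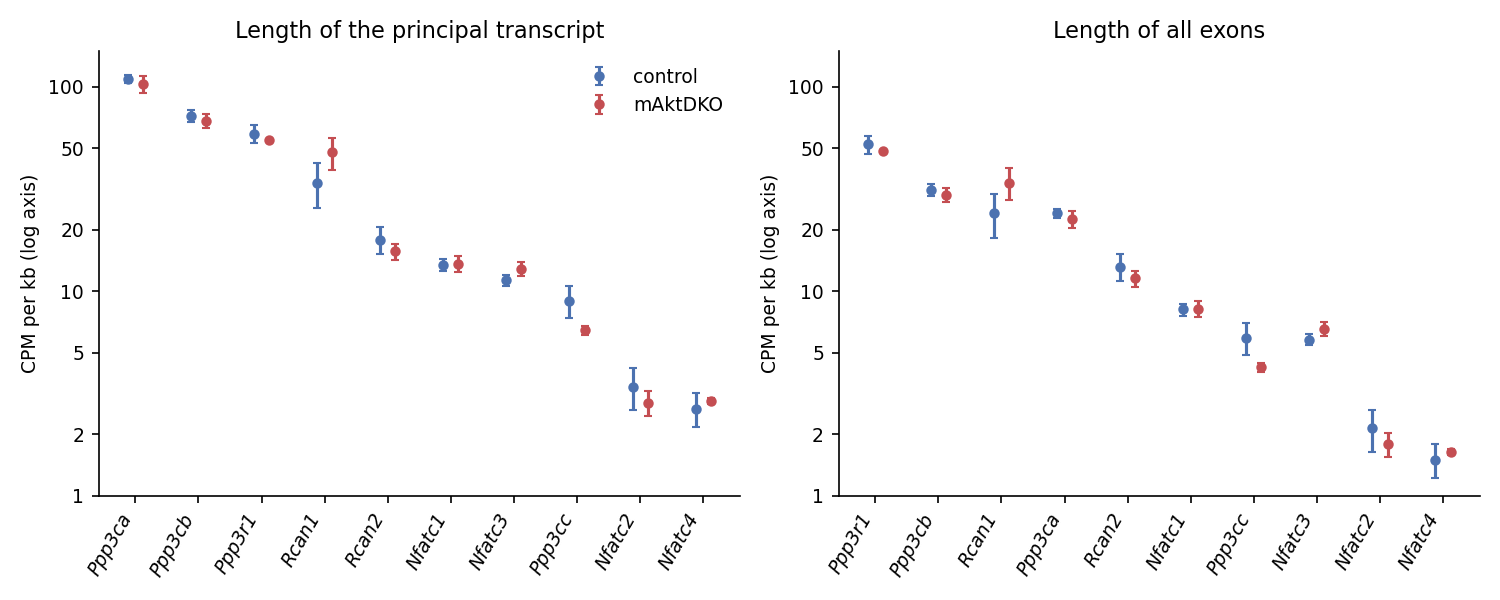
Level of each gene per kb of transcript (log axis) in control and mAktDKO mice, as mean and SD (n = 3), ordered by the control mean, with the length of the principal transcript (left) or of all exons (right). Ppp3ca leads on the left with 109 CPM per kb in control mice and Ppp3r1 on the right with 52.2, and Nfatc2 and Nfatc4 are last in both.

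Ppp3cc, as the member with the smallest p in edgeR, was compared with all other tested genes by the Pearson r of log2 CPM over the 6 mice. The most similar patterns were those of Rrp12, Psmd13, Bop1, Fam114a2 and Ift172, with r from 0.996 to 0.998. Like Ppp3cc, by which they were picked, all 5 were highest in control mouse 2. Their groups did not overlap, with the mAktDKO mice lower (16.6% of all genes tested), which follows largely from that pick. Their log2 fold changes lay between -0.41 and -0.17, and none was called. Of the 12891 other genes, 1018 had an r above 0.9, and these values describe the 6 mice only.

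Around the members, 49 other genes of the route were listed: calmodulins, regulators and anchors of calcineurin, kinases, exporters and scaffolds of NFAT, further substrates and partners, and store-operated calcium entry. All 49 were tested, 23 with a positive and 26 with a negative log2 fold change (34 and 15 with library totals), with a median of -0.02 against 0.02 for all genes. At an adjusted p of 0.01, edgeR called 0 of them (0.0233% of all genes) while DESeq2 called 4 of the 45 to which it gave an adjusted p (3.55% of all such genes), namely Homer2, Calm3 and Tfeb as lower and Ppia as higher. At 0.05 edgeR called 1 of the 49, Homer2, as lower (0.915% of all genes). Without adjustment 12 of the 49 had a p under 0.05, the same 24.5% as among all genes.

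Homer2 encodes a scaffold protein known to bind NFAT and to compete with calcineurin for it. It was at 50.4, 53.2 and 47.6 CPM in mAktDKO mice 1 to 3 and at 112, 82.6 and 78.4 CPM in control mice 2 to 4. The groups were far apart, and control mouse 2 was again the highest. On the log2 scale Homer2 differed by -0.85 (95% interval -1.15 to -0.55, adjusted p = 0.0394 in edgeR and 8.68e-07 in DESeq2). Without control mouse 2 it was -0.68 (adjusted p = 0.0123, edgeR), and without any one mAktDKO mouse or control mouse 3 its adjusted p in edgeR rose above 0.05, up to 0.178. Its relatives Homer1 and Homer3 had log2 fold changes of -0.24 and 0.25 with adjusted p values of 0.182 and 0.545 in edgeR, and Homer3 was at -0.06 without mAktDKO mouse 2.

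Among the genes of calmodulin, the calcium sensor, Calm3 was at 189, 161 and 171 CPM in mAktDKO mice 1 to 3 against 251, 220 and 236 CPM in control mice 2 to 4. Its groups did not overlap, with a log2 fold change of -0.44 (adjusted p = 0.054, edgeR). Calm2 differed by 0.12 on the log2 scale (adjusted p = 0.51, edgeR), and by 0.05 to 0.21 when single mice were left out. Among regulators and anchors, Ppia, the cyclophilin through which ciclosporin blocks calcineurin, had the smallest p. It was at 89.3, 96.2 and 77.5 CPM against 49.5, 64.9 and 61.3 CPM, with a log2 fold change of 0.58 (adjusted p = 0.0539, edgeR). Ppia has many processed pseudogenes, so its estimated counts depend on how shared reads were divided. Sod1, which protects the metal centre of calcineurin from oxidation, was at -0.32 (adjusted p = 0.0699, edgeR), and Myoz3, a calsarcin that ties calcineurin to the Z-disc, at -0.37 (adjusted p = 0.0822, edgeR), both log2 fold changes.

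Among the kinases and exporters, Xpo1, the exportin that carries NFAT out of the nucleus, was at 69.6, 61.8 and 60.3 CPM in mAktDKO mice 1 to 3 and at 43.2, 49.1 and 49.8 CPM in control mice 2 to 4. The groups did not overlap, with a log2 fold change of 0.43 (adjusted p = 0.0572, edgeR). Dyrk1b, a kinase of the family that phosphorylates NFAT, differed by -0.19 on the log2 scale (adjusted p = 0.179, edgeR). Gsk3b and Gsk3a, the kinases that Akt inhibits, had log2 fold changes of 0.04 and -0.03 (adjusted p = 0.816 and 0.881, edgeR), and the sign of each changed without some single mice. Among substrates and partners, Tfeb, a lysosomal regulator that calcineurin dephosphorylates, was at 35.6, 32.8 and 35.8 CPM against 61.9, 44.4 and 48.6 CPM, a log2 fold change of -0.57 (adjusted p = 0.0573, edgeR). Nfat5, the relative of the family that answers to osmotic stress and not to calcineurin, was at 91.2, 107 and 111 CPM against 65.9, 80.8 and 81.8 CPM, a log2 fold change of 0.43 (adjusted p = 0.0746, edgeR). The control mice were all lower for Nfat5 and all higher for Tfeb. Mef2d, a muscle transcription factor that calcineurin activates, differed by -0.26 on the log2 scale (adjusted p = 0.183, edgeR), or -0.15 without control mouse 2. Fos, an NFAT partner in the AP-1 complex, varied widely between mice, with 114, 19.1 and 199 CPM in mAktDKO mice 1 to 3 and 54.1, 50.8 and 9.30 CPM in control mice 2 to 4. Its groups overlapped, and the 95% interval of its log2 fold change ran from -0.20 to 3.27 (adjusted p = 0.248, edgeR). Of the 7 genes of store-operated calcium entry, none had an unadjusted p under 0.05. The smallest p was that of Stim1, the calcium sensor of the store, with a log2 change of -0.20 (adjusted p = 0.241, edgeR), or -0.11 without control mouse 2. The channel gene Trpc1 was at -0.42 on that scale (adjusted p = 0.429, edgeR), or -0.19 without mAktDKO mouse 1 and -0.79 without mAktDKO mouse 2.

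**Figure D5:**
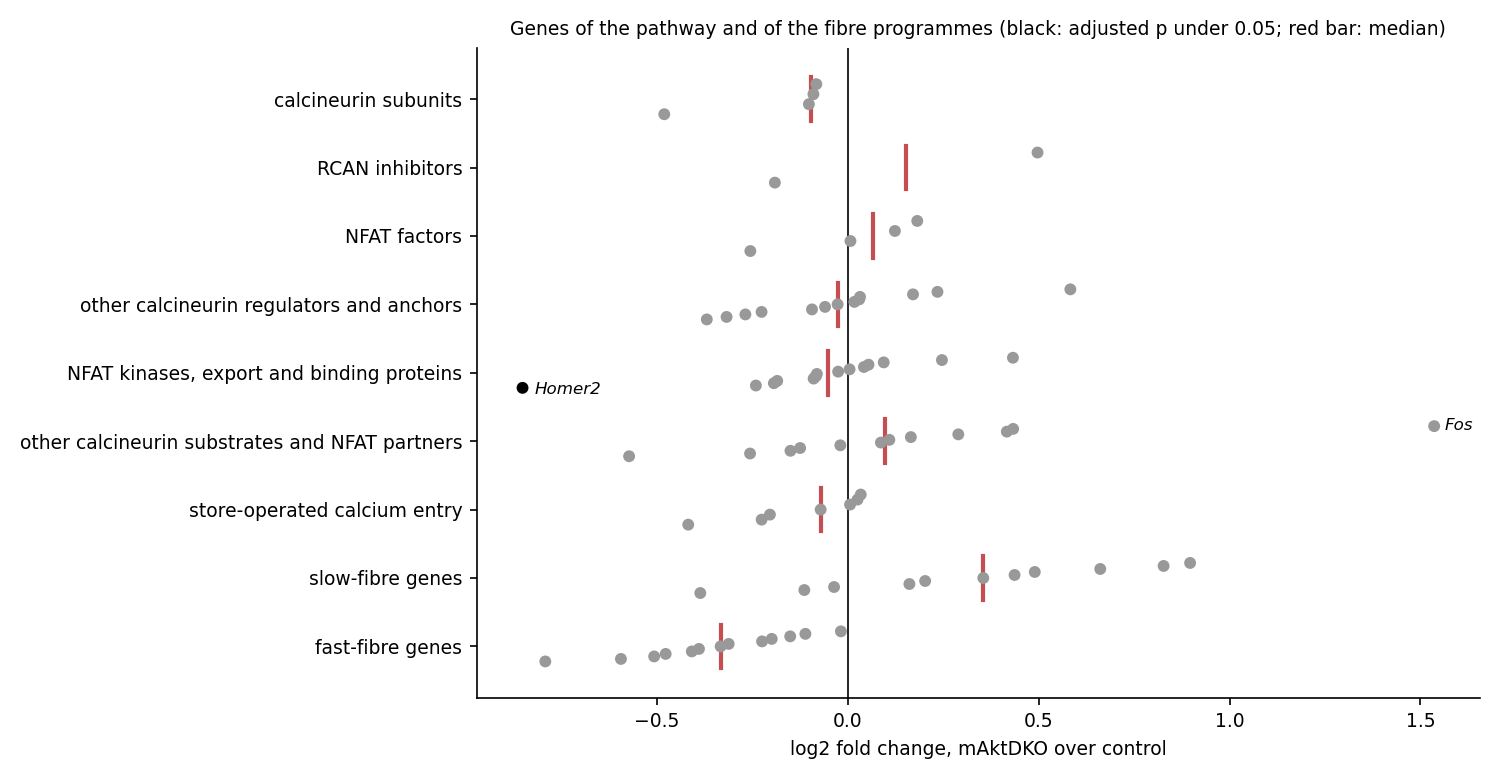
Log2 fold change (mAktDKO over control) of the tested genes in the lists of the route (other than calmodulins) and of the fibre programmes, with 1 point per gene and the median of each list as a red bar. Homer2 is the only point past an adjusted p of 0.05 in edgeR, and the medians are 0.35 for slow-fibre and -0.33 for fast-fibre genes.

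The fibre programmes that this route is known to act on were set beside it. Of the 11 slow-fibre genes, 8 had a positive log2 fold change, with a median of 0.35 against 0.02 for all genes (from 0.22, without mAktDKO mouse 2, to 0.51 without one mouse), and edgeR called none at 0.01 or 0.05. An unadjusted p under 0.05 was found for 4 of them (3 higher and 1 lower), against 24.5% of all genes. DESeq2 called 1 as higher at 0.01, Tpm3 (3.55% of the genes with an adjusted p). The groups did not overlap for 0 of the 11 as higher (14.6% of all genes) and for 1, Casq2, as lower (16.6%). With library totals 10 of the 11 were positive. Myh7, the slow myosin, was at 525, 637 and 269 CPM in mAktDKO mice 1 to 3 and at 168, 368 and 233 CPM in control mice 2 to 4, so that the groups overlapped through mAktDKO mouse 3 (log2 fold change 0.90, adjusted p = 0.152, edgeR). Tnni1, slow troponin I, showed the same order of mice, with 28.0, 33.5 and 16.7 CPM against 10.3, 21.2 and 12.6 CPM (log2 fold change 0.83, adjusted p = 0.141, edgeR). On the log2 scale Tpm3, slow tropomyosin, was at 0.66 (adjusted p = 0.102, edgeR) and Casq2, slow calsequestrin, at -0.39 (adjusted p = 0.118, edgeR). Rcan1, Myh7, Tnni1 and Tpm3 were each highest in mAktDKO mouse 2. All 13 fast-fibre genes had a negative log2 fold change, except that Myh4 (0.12) and Actn3 (0.02) were positive with library totals and 1 gene was positive without control mouse 3 or without mAktDKO mouse 2. Their median was -0.33, and 8 had groups that did not overlap, against 16.6% of all genes in this direction. edgeR called none of them at 0.01 or 0.05, with 8 at an unadjusted p under 0.05 (24.5% of all genes), and DESeq2 called 6 of the 13 at 0.01 (3.55% of the genes with an adjusted p). The 3 with the smallest p, again as log2 fold changes, were Myh1 at -0.51, Tnni2 at -0.59 and Tnnc2 at -0.48 (adjusted p = 0.0539, 0.0557 and 0.0608, edgeR). Myl1, which encodes Mlc1f, is also in the fast-fibre list, and the Cre knock-in of the mAktDKO mice lies behind its promoter. Its log2 fold change was -0.39 (adjusted p = 0.0853 in edgeR and 0.00383 in DESeq2), and its groups did not overlap. Whether the knock-in itself changed Myl1 RNA was not tested. In bulk RNA, fewer fibres of a type and less RNA per fibre cannot be told apart.

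Markers of the fibres and of other cells in the muscle were summed in each mouse, and the ranges are given for mAktDKO against control. The 7 muscle markers all had negative log2 fold changes (median -0.22), against 6 of 7 under 5 of the alternatives, library totals and leaving out control mouse 2 among them, and summed to 136717 to 178421 CPM against 174600 to 197973 CPM. Of these only Mb was called, at 0.05, and Ttn alone made up most of the muscle sum in every mouse. Tenocyte markers were positive in 5 of 5 cases and summed to 851 to 1279 CPM against 625 to 824 CPM. Markers of fibro-adipogenic progenitors were positive in 6 of 6 cases (18324 to 21814 CPM against 7350 to 18438 CPM), as were those of macrophages (120 to 149 CPM against 84.9 to 132 CPM). Schwann cell markers were positive in 5 of 5 cases (380 to 491 CPM against 311 to 395 CPM), adipocyte markers in 5 of 5 (23.1 to 74.0 CPM against 15.1 to 37.05 CPM) and erythroid markers in 5 of 5 (150 to 320 CPM against 114 to 168 CPM). Without control mouse 2, which held the lowest sum of the fibro-adipogenic, macrophage and Schwann cell lists, 5 of 6 fibro-adipogenic, 5 of 6 macrophage, 4 of 5 Schwann cell and 4 of 5 erythroid markers were positive, as were 6 of 7 endothelial, 3 of 6 mural and smooth muscle and 4 of 4 satellite cell markers. The control sum of the fibro-adipogenic list then began at 15822 CPM. Col1a1 alone made up most of the sum of that list in every mouse. Leaving out other mice moved these counts too. Satellite cell markers were positive in 2 of 4 cases without control mouse 3 or without mAktDKO mouse 2. Tenocyte markers were positive in 4 of 5 without control mouse 3, and endothelial markers in 6 of 7 without mAktDKO mouse 3. Without mAktDKO mouse 1, 2 of 6 mural and smooth muscle, 5 of 6 macrophage, 4 of 5 Schwann cell and 4 of 5 erythroid markers were positive. With all 6 mice, positive log2 fold changes were found for 4 of 7 endothelial, 4 of 6 mural and smooth muscle and 3 of 4 satellite cell markers, and with library totals for 7 of 7 endothelial and 6 of 6 mural and smooth muscle markers. Endothelial markers summed to 450 to 537 CPM against 384 to 499 CPM, mural and smooth muscle markers to 590 to 683 CPM against 530 to 607 CPM, and satellite cell markers to 7.55 to 9.05 CPM against 6.65 to 7.34 CPM. Rcan1, Nfatc3, Nfatc4 and Nfat5 had log2 fold changes of the same sign as most of these lists, and Ppp3cc, Homer2, Calm3 and Tfeb of the same sign as the muscle markers. Their part in these differences was not tested.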

How the data were processed

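The authors depleted rRNA from EDL samples of 3 mAktDKO and 3 control mice, made directional libraries and sequenced them in paired ends. Per the labels and the study's methods, reads were mapped to mm10 with STAR and counted with RSEM 1.3.1. For STAR, the submitters' processing notes give version 2.6.1b, and the study's methods give a different version. The annotation was not given in the sources used here. The deposited values are estimated counts per gene, unscaled, with 3.36% to 4.09% of each mouse's values not being whole numbers. The mAktDKO columns match the labelled samples by number. For the control group the table counts from 2 to 4 and the labels from 1 to 3, so its columns stand for the group only. The p-values set each difference against the spread between these samples.

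Counts were rounded, passed through filterByExpr at a minimum count of 10 (edgeR 4.0.16) and scaled by TMM in R 4.3.3. All 12892 genes that passed were fitted by genotype with the quasi-likelihood test, and p-values were adjusted over all of them. A gene was called at an adjusted p under 0.01. The study's methods set this limit for DESeq2 results, together with a q value under 0.05. Intervals use the total degrees of freedom of the fit. The steps were tested on simulated data. Shares and ratios were compared by two-sided exact permutation, with a Benjamini-Hochberg adjustment over 9 of them. Positions and lengths come from GENCODE M21 and promoter windows from RefSeq (GRCm38.p6), where 7 of the 10 members were matched for printing. Intervals of counts and the floor cover counting error only. The members, gene lists and tests were chosen with earlier results of these data known. The genes named are the members, the targeted genes, the 3 with the smallest p in each list, and the 5 whose pattern is most like the member of smallest p in edgeR; some genes are not reported here. Other genes (Myh7, Myh4, Myl1, Mb, Hbb-bs, Actn3, Fos, Gsk3a, Gsk3b, Homer1 and Homer3) were named after their values were seen. The alternatives were 3 other scalings, DESeq2 1.42.0, 2 other filters, a threshold of 0.05 and leaving out each mouse; the use of all exons as length was chosen after seeing the data.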

Additional observations from a re-analysis of the deposited data

How the results depend on the processing

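No paired analysis was possible because the numbers of the control columns are not those of the labelled samples, so the fit with a replicate block was not run. The number of members called was 0 under each of the 13 alternatives, with 1 to 3 at an unadjusted p under 0.05. Of the 120 comparisons of a member's log2 fold change with an alternative, 113 kept their direction and 7 were reversed, and 0 members were called in any. With library totals the median of all genes moved from 0.02 to 0.16, and Ppp3ca (0.0447), Ppp3cb (0.0522) and Ppp3r1 (0.0339) turned positive, each still below that median. Nfatc1 was at -0.0011 with DESeq2 and from -0.0723 to 0.0721 without one mouse. The medians of the lists turned positive with library totals for regulators and anchors (0.11), kinases, export and binding proteins (0.0851) and store-operated calcium entry (0.0654). Without one mouse the median was from -0.0637 to 0.0382 for regulators and anchors. In the fits without one mouse, the log2 fold change of Ppp3cc was from -0.58 to -0.33 and that of Rcan1 from 0.34 to 0.70 (adjusted p from 0.0514, without control mouse 4, to 0.417, edgeR). The difference in share, in percentage points, was from -0.0530 to 1.23 for Ppp3cb, from -2.67 to 0.0860 for Nfatc1 and from -0.18 to 1.22 for Nfatc4, and that in the log2 ratio of Ppp3r1 to catalytic subunits from -0.0863 to 0.105; that of Rcan1 plus Rcan2 was from 0.197 to 0.478. With 3 mice a group, the intervals of the members' log2 fold changes reach at least 0.20 to each side. Over all genes, 3 were called by edgeR at 0.01, 32 of 17360 with no filter on low counts, 341 by DESeq2, 152 at 0.05, and from 0 to 8 without one mouse. The causes of these shifts were not tested.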

Other observations

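Hbb-bs, a beta globin gene in the erythroid list, had 0 counts in every control mouse and 23.5, 9.23 and 10.01 CPM in mAktDKO mice 1 to 3, whereas the other listed erythroid genes were detected in both groups. Myoglobin (Mb), the oxygen store of oxidative fibres and a gene that the calcineurin route is known to support, was at 811, 769 and 895 CPM in mAktDKO mice 1 to 3 and at 2821, 1783 and 1756 CPM in control mice 2 to 4. Its groups lay far apart, with a log2 fold change of -1.36 (adjusted p = 0.0206 in edgeR, under 0.05 but not under 0.01, and 4.15e-14 in DESeq2, with 0.139 in edgeR without mAktDKO mouse 2), in the opposite direction to Myh7, Tnni1 and Tpm3. Both genes were singled out after their values were seen.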
